A study of Mus musculus with 8 samples.

Results

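The miRNA content of extracellular vesicles (EVs) was compared between hepatocytes silenced for PCBP2 and their controls, using the 4 EV libraries of a series of 8 small RNA libraries. The EVs were purified from medium with EV-depleted serum in which 3A cells, murine hepatocytes that do not form tumours, had grown for 72 h. The cells carried either a scrambled shRNA (shCTR) or an shRNA against PCBP2 (shPCBP2). In all groups the shRNA was delivered by a pSUPER retroviral vector and infected cells were selected with puromycin, so PCBP2 was stably knocked down and not deleted. Each condition had 2 biological replicates, called EV shCTR 1 and 2 and EV shPCBP2 1 and 2. The remaining 4 libraries were made from the cells themselves and are used only where a change in EVs is set beside that in cells. The PCBP2 transcript is not measured by small RNA libraries, so the knockdown could not be checked in these data.

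All 1978 mature mouse miRNAs of the count table were considered, including those never read in the cells. Of these, 267 had a read in any EV library, 136 in all 4, 25 in 3, 36 in 2 and 70 in 1, whereas 1711 had none. The 197 miRNAs read in 2 or more EV libraries were tested. A nematode miRNA, cel-miR-39-3p, served as the spike-in, and the level of a miRNA is its count per 1000000 spike-in counts. The EV libraries held between 26586856 and 38166798 counts, of which the spike-in took between 97.6 and 98.4%. Mouse miRNAs received 687592 and 553556 counts in EV shCTR 1 and 2, and 618598 and 503070 counts in EV shPCBP2 1 and 2. A single count therefore stood for a level between 0.0266 and 0.0384.

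PCBP2 is a KH-domain protein that binds poly-C stretches of RNA and acts in mRNA stability, translation and viral RNA metabolism. EVs are membrane vesicles that carry selected RNAs out of the cell, and RNA-binding proteins are among the factors that sort miRNAs into them or hold them back. SYNCRIP, another RNA-binding protein of hepatocytes, loads miRNAs that carry a motif named hEXO, and a second class of motifs, named CELL, marks miRNAs that are retained. The comparison asks which miRNAs of the EVs differ in amount when PCBP2 is silenced, a different question from whether the ratio between EVs and cells differs.

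The miRNAs on which the results turn are printed 5′ to 3′ with the seed, bases 2 to 8, in capitals. Mature sequences are those of RefSeq (build GRCm38.p6), which matched 171 of the 197 tested miRNAs by name. The first is the miRNA that passed the test, followed by others with the smallest p among those lower in EV shPCBP2.
miR-31-5p: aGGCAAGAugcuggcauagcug
miR-17-5p: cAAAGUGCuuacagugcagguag
miR-93-5p: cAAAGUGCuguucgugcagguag
miR-322-5p: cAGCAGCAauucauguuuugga
miR-191-5p: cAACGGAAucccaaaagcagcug
miR-192-5p: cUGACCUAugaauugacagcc
let-7d-5p: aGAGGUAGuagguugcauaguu
The abundant miRNAs of the EVs are shown because they fix the total, and the seeds of miR-322-5p and let-7d-5p return among them.
miR-16-5p: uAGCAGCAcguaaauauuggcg
let-7g-5p: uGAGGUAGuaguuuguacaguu
let-7a-5p: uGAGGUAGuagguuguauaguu
let-7f-5p: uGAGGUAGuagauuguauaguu
miR-103-3p: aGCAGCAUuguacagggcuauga
miR-23a-3p: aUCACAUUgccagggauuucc
The last set holds miRNAs read in both EV libraries of a condition and in neither of the other, in addition to miR-192-5p.
miR-129-2-3p: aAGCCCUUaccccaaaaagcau
miR-17-3p: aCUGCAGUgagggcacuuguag
miR-296-5p: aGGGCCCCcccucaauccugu
miR-369-5p: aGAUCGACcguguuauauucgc
miR-872-5p: aAGGUUACuuguuaguucagg
miR-23a-5p: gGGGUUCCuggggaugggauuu
miR-345-3p: cCUGAACUaggggucuggagac

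miR-31-5p is encoded at chr4:88910614-88910635 on the minus strand, in an exon of the lincRNA AL805899.1. miR-17-5p and miR-17-3p are the arms of a single hairpin on chromosome 14, in an exon of Mir17hg, the host of the miR-17-92 cluster. miR-93-5p lies on chromosome 5 in an annotated exon of Mcm7. miR-16-5p comes from 2 loci, in introns of Smc4 on chromosome 3 and of Dleu2 on chromosome 14. miR-23a-5p and miR-23a-3p are likewise arms of a single hairpin, on chromosome 8.

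The miRNAs read in a single condition come from separate loci. miR-192-5p lies at chr19:6264857-6264877 on the plus strand and miR-296-5p at chr2:174267093-174267113 on the minus strand, neither within an annotated host on its strand. miR-129-2-3p (chr2:94241376-94241397, minus strand) lies in an intron of the lincRNA Mir670hg and miR-872-5p (chr4:94665167-94665187, plus strand) in an intron of Ift74. miR-369-5p (chr12:109743431-109743452, plus strand) lies in an intron of the lincRNA Mirg, and miR-345-3p (chr12:108837027-108837048, plus strand) in an intron of Slc25a47. miR-322-5p lies at chrX:53054306-53054327 on the minus strand, with no annotated host on its strand.

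EVs from shPCBP2 cells held fewer mouse miRNA counts per spike-in count than EVs from shCTR cells. The total level was 24764 and 21263 in EV shCTR 1 and 2, against 16475 and 16544 in EV shPCBP2 1 and 2. Both shPCBP2 libraries lay under both shCTR libraries, with means of 23014 ± 2475 (SD, n = 2) and 16509 ± 48.7 (SD, n = 2). The log2 difference of the total was -0.48, a ratio of 0.719, and it stayed negative without any single library, between -0.37 without EV shCTR 1 and -0.58 without EV shCTR 2. A two-sided exact permutation test of 2 against 2 libraries gave p = 0.33, the smallest it can give. The same total differed by -0.30 between the cells, with 714424 and 743486 in the controls against 495645 and 709067 after silencing. Most of that difference came from cell shPCBP2 1. From the counts alone, less miRNA per vesicle and fewer vesicles cannot be told apart. The spike-in was added to the extracted RNA, so a difference in the steps before that cannot be told apart from them either. None of these was tested. The study counted vesicles per cell separately and reported no effect of the knockdown on their production. Those vesicle counts were not analysed here.

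**Figure D1:**
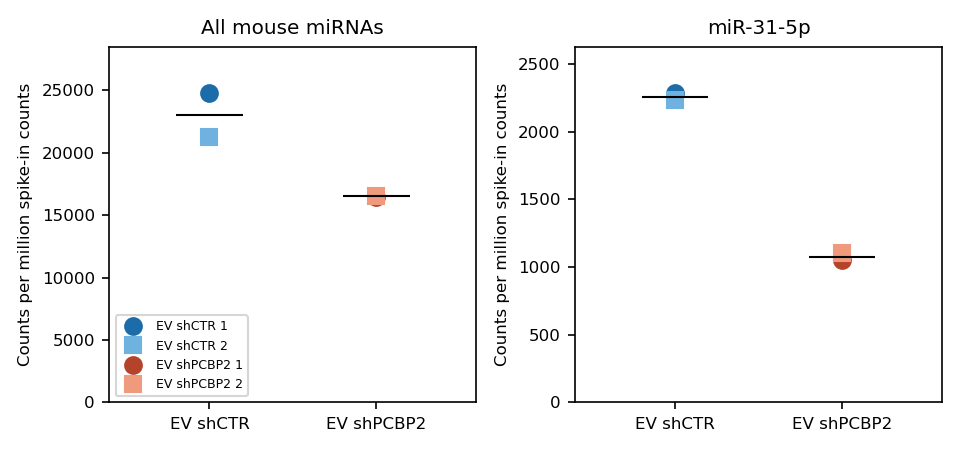
Counts per 1000000 spike-in counts (vertical axes, from 0) of all mouse miRNAs (left) and of miR-31-5p (right) in the 2 EV shCTR and 2 EV shPCBP2 libraries, with the mean of each condition as a line. Both shPCBP2 libraries lie under both shCTR libraries in each panel, with a ratio of 0.719 for the total, taken from the mean log2 levels.

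A single miRNA passed the test. miR-31-5p, a miRNA often altered in epithelial tumours, ranked 2 by its level in the EVs and fell after silencing. It received 63406 and 58092 counts in EV shCTR 1 and 2, against 39491 and 33483 in EV shPCBP2 1 and 2. Relative to the spike-in these are levels of 2284, 2231, 1052 and 1101, so the replicates of each condition stood close together and the conditions did not overlap. The level in EV shPCBP2 was 47.7% of that in EV shCTR (log2 change -1.07, SE 0.10, adjusted p = 0.0174). The test was edgeR's quasi-likelihood test, with p-values adjusted over the 197 tested miRNAs by the Benjamini-Hochberg method, and it called 0.508% of them. miR-31-5p also made up a smaller part of the mouse miRNA counts, 9.22 and 10.5% in EV shCTR against 6.38 and 6.66% in EV shPCBP2. With libraries scaled by the total mouse count its log2 change was -0.60 and it did not pass (adjusted p = 0.506, same test). Leaving out any 1 of the 4 libraries kept the log2 change between -1.10 and -1.04, but ended the call (adjusted p between 0.184 without EV shCTR 2 and 0.431 without EV shCTR 1, same test).

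In the cells, miR-31-5p was counted 886411 and 745224 times in the controls, against 509092 and 736135 after silencing. Its log2 change there was -0.47 (SE 0.19, adjusted p = 0.342, edgeR's quasi-likelihood test over all 8 libraries). The change in EVs minus that in cells was -0.60 (SE 0.26, adjusted p = 0.585, same test), so the difference between the compartments did not pass. That difference passed for 4 of the 180 miRNAs tested in both compartments (2.22%), all with 0 counts in both EV libraries of a condition. Its opposite arm, miR-31-3p, had 0 counts in every EV library.

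The lower level was shared by most miRNAs when the spike-in set the scale. Of the 197 tested miRNAs, 152 had a fitted change under 0 and 45 above it, with a median log2 change of -0.54, the same with the miRNAs at 0 counts in a condition set to their bound. Without EV shCTR 1 the median was -0.31. Both shPCBP2 libraries lay under both shCTR libraries for 84 miRNAs (42.6%) and above them for 10 (5.08%). At an unadjusted p under 0.05 there were 33 lower miRNAs (16.8%) and 3 higher ones (1.52%), 18.3% in all. When libraries were instead scaled by the total mouse count, the median was -0.053, with 104 fitted under 0 and 93 above it. On that scale 38 miRNAs (19.3%) lay lower without overlap and 33 (16.8%) higher, and 0 passed the test, with 9 lower (4.57%) and 5 higher (2.54%) at an unadjusted p under 0.05, 7.11% in all. Other models called more miRNAs by the spike-in. DESeq2 called 48 (24.4%), of which 46 were lower (23.4%) and 2 higher (1.02%), and edgeR with all 8 libraries called 13 (6.6%), of which 10 were lower (5.08%) and 3 higher (1.52%). The choice of scale thus moved the median by more than 0.1 on the log2 scale, and directions below are by the spike-in unless the total is named.

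Among the 56 miRNAs with at least 1000 counts in each EV library, where counting error is small, 42 were lower without overlap and 1 was higher by the spike-in. By the total mouse count, 11 were lower and 11 higher. The count of lower miRNAs among these deeply read ones, 42 of 56, is to be read against the 42.6% found over all tested miRNAs. The 136 miRNAs read in all 4 libraries gave 72 lower and 4 higher by the spike-in, with a median of -0.47, and 29 lower and 24 higher by the total, with a median of 0.014.

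**Figure D2:**
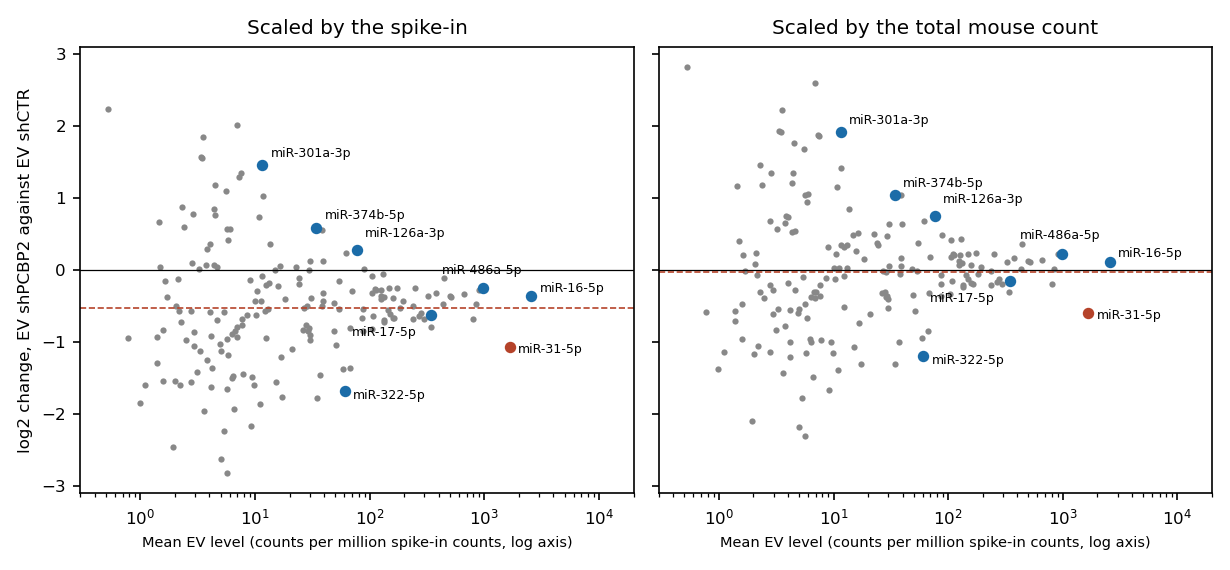
log2 change between EV shPCBP2 and EV shCTR (vertical axis) against the mean EV level in counts per 1000000 spike-in counts (horizontal, log axis), scaled by the spike-in (left) and by the total mouse count (right). Each of the 185 points is a tested miRNA with more than 3 counts in at least 1 library of each condition, the dashed line is their median (-0.54 and -0.025), and miR-31-5p, in red, lies below the median in both panels.

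After miR-31-5p, the miRNAs with the smallest p had lower values in EV shPCBP2 but did not pass (adjusted p = 0.190 for each of these miRNAs, edgeR). DESeq2 with the spike-in called each of them (adjusted p at most 0.00032), whereas none passed in edgeR by the total mouse count. miR-23b-3p, which is made from a cluster with miR-27b and miR-24, had levels of 299 and 288 in EV shCTR 1 and 2 and of 187 and 179 in EV shPCBP2 1 and 2 (log2 change -0.68, SE 0.15). miR-17-5p, a promoter of proliferation, had levels of 434, 399, 275 and 263 in the same order (-0.63, SE 0.14). miR-93-5p, a paralog of miR-17-5p that shares its seed, had levels of 330, 325, 203 and 217 (-0.64, SE 0.14). In these 3 miRNAs the replicates differed far less than the conditions, and none of the levels overlapped. Their log2 changes were -0.20, -0.15 and -0.17 by the total mouse count.

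miR-322-5p, the mouse counterpart of human miR-424, showed the largest change among the miRNAs of this group read in every library. It received 2875 and 2104 counts in EV shCTR 1 and 2, against 758 and 1138 in EV shPCBP2 1 and 2, so its level in EV shPCBP2 was 31.2% of that in EV shCTR (log2 change -1.68, SE 0.38). The change was -1.19 by the total mouse count. In cells miR-322-5p was lower as well, from 76279 and 68004 counts to 28762 and 40304 (log2 change -1.14, SE 0.34, adjusted p = 0.233, edgeR over all 8 libraries), and the change in EVs minus that in cells was -0.53 (SE 0.48, adjusted p = 0.992).

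miR-191-5p, encoded beside miR-425, had levels of 1053 and 918 in EV shCTR and of 682 and 548 in EV shPCBP2 (log2 change -0.68, SE 0.16). let-7d-5p, a member of the let-7 family, had levels of 494 and 372 in EV shCTR and of 228 and 273 in EV shPCBP2 (-0.79, SE 0.20). These changes were -0.20 and -0.30 by the total mouse count. The levels of both did not overlap between the conditions relative to the spike-in.

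**Figure D3:**
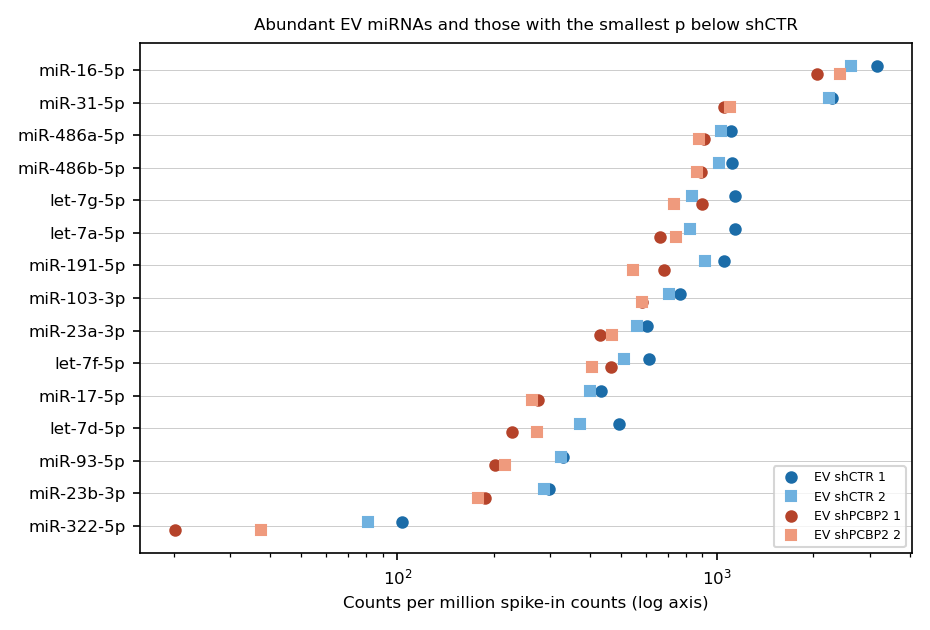
Level of the 10 most abundant EV miRNAs and of those read in all libraries with the smallest p below shCTR, in counts per 1000000 spike-in counts (log axis), with 1 point for each EV library. Red points (EV shPCBP2) lie left of both blue points (EV shCTR) for each miRNA but let-7g-5p, whose EV shPCBP2 1 level of 899 exceeds the EV shCTR 2 level of 833.

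The 10 most abundant miRNAs of the EVs took between 52.4 and 53.1% of the mouse counts in each library. All 10 were fitted lower by the spike-in, 9 of them without overlap beside 42.6% of all tested miRNAs, and none but miR-31-5p passed the test. miR-16-5p, which restrains the cell cycle and ranked first, had levels of 3161 and 2618 in EV shCTR 1 and 2 and of 2056 and 2429 in EV shPCBP2 1 and 2 (log2 change -0.37, SE 0.14, adjusted p = 0.267 by edgeR). let-7g-5p had levels of 1140, 833, 899 and 731, and was the only one of the 10 whose conditions overlapped. let-7a-5p had levels of 1139, 825, 662 and 746, with both replicates of EV shPCBP2 under both of EV shCTR. By the total mouse count, 2 of the 10 were fitted lower, miR-31-5p and miR-191-5p, both without overlap, and 3 lay higher without overlap (miR-103-3p, miR-486a-5p and miR-486b-5p), while miR-16-5p changed by 0.11 and let-7g-5p by 0.21.

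miR-486a-5p and miR-486b-5p, known from red blood cells, ranked 3 and 4 by level in the EVs. miR-486a-5p had levels of 1104 and 1025 in EV shCTR and of 909 and 875 in EV shPCBP2 (log2 change -0.25, SE 0.11), and 0.22 by the total mouse count. Its near-twin miR-486b-5p had a log2 change of -0.27 (SE 0.12), and how the counting divided reads between the pair is uncertain. Their counts nearly matched in each EV library (30647 and 30824 in EV shCTR 1). The pair is therefore not to be read as independent miRNAs wherever both are counted. In the cells they were rare, with 68 to 193 counts of miR-486a-5p in the 4 libraries.

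No miRNA passed the test as higher in EV shPCBP2. The 3 with the smallest p in that direction were miR-328-3p, miR-23a-5p and miR-345-3p, each read only in the shPCBP2 libraries and described below. Among miRNAs read in every library, miR-374b-5p, made from an intron of the lincRNA Ftx near the X inactivation centre, had 588 and 876 counts in EV shCTR, against 1451 and 1327 in EV shPCBP2. Its levels of 21.2, 33.6, 38.6 and 43.6 did not overlap (log2 change 0.59, SE 0.44, adjusted p = 0.651 by edgeR), and the change was 1.03 by the total mouse count, 0.29 without EV shCTR 1 and 0.96 without EV shCTR 2. miR-126a-3p, a miRNA of endothelial cells hosted by Egfl7, had levels of 71.5 and 67.1 in EV shCTR and of 75.3 and 92.9 in EV shPCBP2 (0.28, SE 0.23, adjusted p = 0.723 by edgeR). Its change was 0.75 by the total mouse count, 0.12 without EV shPCBP2 2 and 0.42 without EV shPCBP2 1. The opposite arm miR-126a-5p lay the other way, at 49.6 and 120 in EV shCTR, against 26.0 and 39.6 in EV shPCBP2 (-1.37, SE 0.49, adjusted p = 0.267 by edgeR).

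The next in order moved with a single library. miR-301a-3p had levels of 5.51 and 6.88 in EV shCTR and of 30.1 and 3.75 in EV shPCBP2 (log2 change 1.45, SE 1.26), and without EV shPCBP2 1 its change was -0.72. miR-130b-3p, which shares the seed of miR-301a-3p, had levels of 35.6, 26.9, 63.4 and 28.2 (0.55, SE 0.52), and -0.15 without EV shPCBP2 1. miR-140-5p, a cartilage miRNA, had levels of 6.01, 2.42, 16.2 and 5.23 (1.34, SE 1.41), and 0.31 without EV shPCBP2 1. In all 3 the highest level was that of EV shPCBP2 1. Scaled by the total, the changes were 1.91, 1.04 and 1.86, and both EV shPCBP2 libraries lay above both EV shCTR libraries for miR-130b-3p and miR-140-5p, but not for miR-301a-3p.

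Both EV libraries of a condition held reads, and neither of the other did, for 9 miRNAs, 4.57% of the tested. Of these, 6 were read only in EV shCTR (3.05%) and 3 only in EV shPCBP2 (1.52%). A fold against a condition with 0 counts is computed with 3 counts in each of its libraries. It is a lower bound for counting error only, and does not cover the zeros between replicates described below. miR-192-5p, a miRNA of hepatocytes and kidney, had 1058 and 62 counts in EV shCTR 1 and 2 and 0 in both EV shPCBP2 libraries, at least 227-fold lower. That bound was 26.7-fold without EV shCTR 1 and 427-fold without EV shCTR 2. miR-129-2-3p had 262 and 179 counts in EV shCTR but 0 in EV shPCBP2, at least 91.4-fold lower. miR-369-5p had 187 and 234 counts, at least 88.1-fold lower.

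The remaining miRNAs of EV shCTR had fewer counts. miR-296-5p had 189 and 117 counts (at least 63.3-fold lower in EV shPCBP2), miR-872-5p had 99 and 176 (at least 57.8-fold) and miR-17-3p, the opposite arm of miR-17-5p, had 42 and 169 (at least 44.8-fold, but 16.9-fold without EV shCTR 2 and 72.7-fold without EV shCTR 1). For all 6, adjusted p was between 0.190 and 0.267 by edgeR's quasi-likelihood test on the 4 EV libraries, so none passed. By edgeR over all 8 libraries, where the spread is estimated from EVs and cells together, miR-369-5p did not pass (adjusted p = 0.151). The others passed in that fit, with adjusted p between 0.00361 and 0.0379.

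In the other direction, miR-328-3p had 0 counts in both EV shCTR libraries and 116 and 101 in EV shPCBP2 1 and 2, at least 28.7-fold higher. It is known as a miRNA that binds hnRNP E2, another name for PCBP2. miR-345-3p had 126 and 73 counts in EV shPCBP2 (at least 25.8-fold higher). miR-23a-5p had 205 and 36 (at least 29.8-fold, but 10.6-fold without EV shPCBP2 1 and 48.9-fold without EV shPCBP2 2). For each of the 3, adjusted p was 0.267 by edgeR on the 4 EV libraries, but between 0.0146 and 0.0497 by edgeR over all 8. They met the read filter only through EV shPCBP2, and the fit over all 8 had the smaller dispersion. The opposite arm of miR-23a-5p, miR-23a-3p, had levels of 602 and 562 in EV shCTR and of 431 and 469 in EV shPCBP2 (log2 change -0.37, SE 0.13, adjusted p = 0.267 by edgeR), and its change was 0.10 by the total mouse count, with overlapping levels.

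Counts of 0 were common in EVs at levels where the other library of the same condition had many counts. Of the 36 miRNAs read in exactly 2 EV libraries, 9 were those above and 27 were read in 1 library of each condition. Each mixed pair of libraries held 5 to 8 of them, against 6 for the EV shCTR pair and 3 for the EV shPCBP2 pair. Reads in a single condition were thus no more frequent than in a mixed pair. The 70 miRNAs read in 1 library had a median of 95.5 counts there, with a highest count of 437. Each EV library held only 4 to 10 miRNAs with 1 to 40 counts, against a median of 354 to 464 counts among those read. A count of 0 in EVs therefore does not show that a miRNA is absent. With 100 counts needed for a miRNA to be taken as read, 5 miRNAs were in that class, 4 in EV shCTR and 1 in EV shPCBP2. Of the 4, miR-1983 was not among the 9, with 377 and 161 counts in EV shCTR, against 1 and 84 in EV shPCBP2, named here after its values were seen.

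Of the 9, 8 were read in all 4 cell libraries, and miR-369-5p in none. miR-872-5p had between 15851 and 29629 counts in the cells and miR-192-5p between 10976 and 20510, so neither was lost from the cells. miR-129-2-3p was counted 5802 and 4625 times in the control cells, against 722 and 874 times after silencing. That difference did not pass (log2 change -2.78, SE 0.58, adjusted p = 0.110, edgeR over all 8 libraries). In EVs its adjusted p was 0.256 by edgeR on the 4 EV libraries and 0.00361 by edgeR over all 8.

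**Figure D4:**
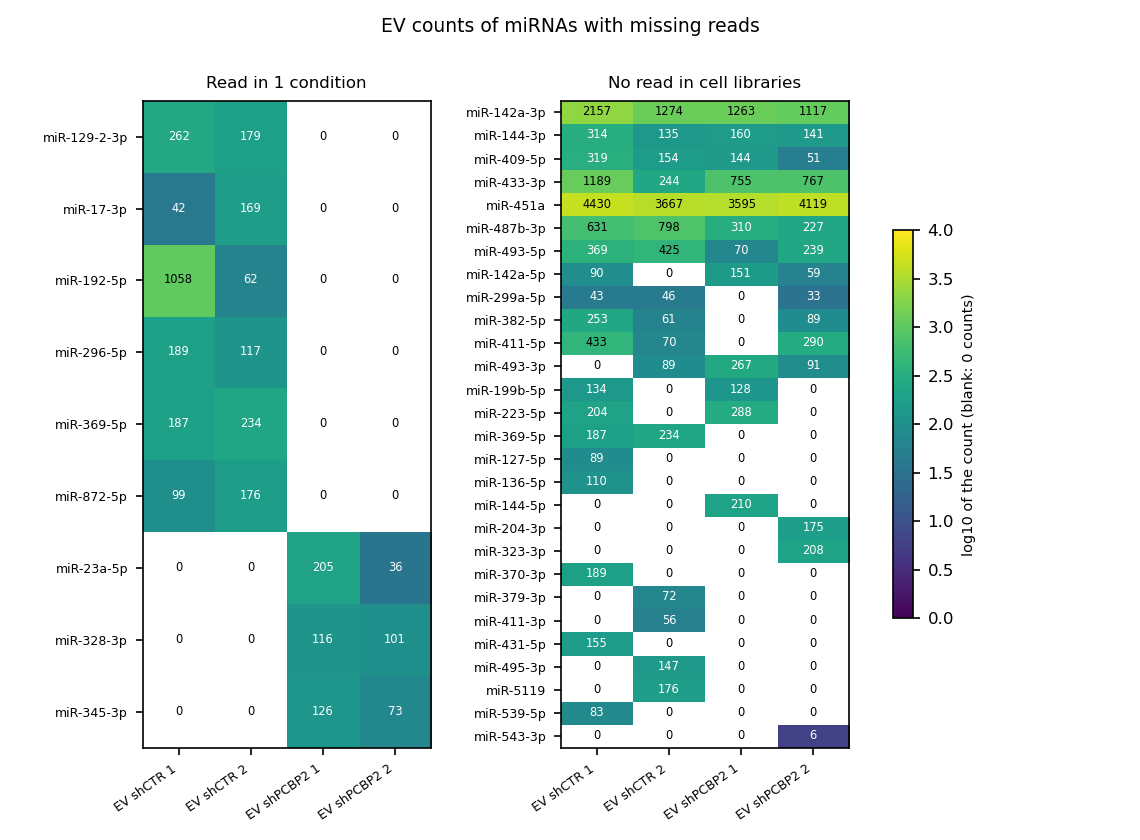
Counts in the 4 EV libraries of the 9 miRNAs read in both libraries of 1 condition and neither of the other (left) and of the 28 miRNAs with no read in any cell library (right); the number in each cell is the count and the colour its log10. In the right panel only 7 miRNAs have counts in all 4 libraries, with miR-451a and miR-142a-3p the highest.

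miRNAs with the same seed can repress shared targets, and the tested miRNAs held 10 seeds with 3 or more members, 42 miRNAs in all. None of the 42 passed the test. The 9 tested members of the let-7 family (seed GAGGUAG), which represses growth genes such as Ras and Hmga2, were all fitted lower by the spike-in, 7 without overlap beside 42.6% of all tested miRNAs, with a median log2 change of -0.40 between -0.79 (let-7d-5p) and -0.27 (let-7g-5p). Their summed level was 4591 and 3607 in EV shCTR against 3135 and 2997 in EV shPCBP2. The family's part of the mouse counts hardly differed, at 18.5 and 17.0% in EV shCTR, against 19.0 and 18.1% in EV shPCBP2, and by the total mouse count its median was 0.066, with 1 member lower and 1 higher without overlap. let-7a-5p differs from let-7c-5p, let-7e-5p and let-7f-5p by 1 base each, so reads may have been divided among them.

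Of the 6 members with the seed AAAGUGC, encoded in the miR-17-92 cluster and its paralogs, 5 were fitted lower and lay without overlap, beside 42.6% of all tested miRNAs, with a median of -0.64. miR-106b-5p had levels of 145 and 119 in EV shCTR and of 47.7 and 103 in EV shPCBP2 (log2 change -0.82, SE 0.40). The exception, miR-106a-5p, had 1 to 3 counts in each library. By the total mouse count the median was -0.16, with 3 of 6 lower without overlap.

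The seed AGCAGCA, of the miR-15/16 family, had 5 members with a median of -0.59 (-0.13 by the total mouse count) and wide differences among them. They ran from -1.68 (miR-322-5p) to 0.23 (miR-15a-5p, levels of 42.2 and 71.1 in EV shCTR against 73.2 and 59.6 in EV shPCBP2). The 4 members of the miR-181 family (seed ACAUUCA) were fitted lower, between -1.10 (miR-181d-5p) and -0.0073, with a median of -0.39 that became 0.062 by the total mouse count. The remaining families had 3 members each, and the only one with a median above 0 by the spike-in was that of miR-130a-3p, miR-130b-3p and miR-301a-3p (seed AGUGCAA, median 0.55), where the 2 positive values rested on EV shPCBP2 1. Scaled by the total, the families of miR-99b-5p, miR-25-3p and miR-125b-5p also had medians above 0, at 0.18, 0.21 and 0.18, after -0.30, -0.25 and -0.32 by the spike-in. miR-130a-3p itself, the most abundant of the 3, had levels of 201 and 199 in EV shCTR and of 157 and 95.4 in EV shPCBP2.

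**Figure D5:**
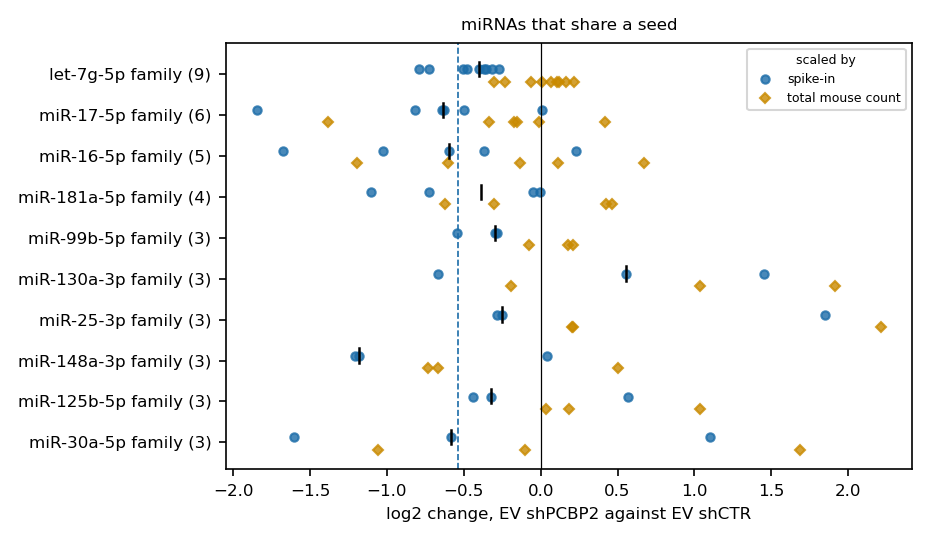
log2 change between EV shPCBP2 and EV shCTR (horizontal axis) of the 42 tested miRNAs in the 10 families with 3 or more members that share a seed, scaled by the spike-in (blue circles, black bar at the median) and by the total mouse count (gold diamonds). The dashed line is the median of all tested miRNAs by the spike-in, -0.54, and each of the 9 let-7 members lies left of 0 by the spike-in but on both sides of 0 by the total.

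The study followed 14 miRNAs by RT-qPCR, chosen for their motifs and in part from these same libraries, so their direction here is not independent evidence. Of the 14, 9 were tested in EVs, 0 passed, 2 were fitted higher and 7 lower. Their median was -0.44 by the spike-in, against -0.54 for all tested miRNAs, and 0.022 by the total mouse count. The study reported PCBP2 binding to the miRNAs it lists with both motifs, and none to those with a single motif. Its RT-qPCR measured the ratio between EVs and cells, whereas EV levels are compared here. Of those with both motifs, 6 were tested, with 2 fitted higher, 4 lower and a median of -0.43 (0.025 by the total mouse count). Of those with a single motif, 3 were tested (miR-195a-5p, miR-421-3p and miR-365-2-5p), all fitted lower, with a median of -1.03 (-0.60 by the total). The 2 higher ones were miR-345-3p and miR-23a-5p, and miR-192-5p was among the 4 lower ones with both motifs, all described above. miR-181d-5p had 888 and 653 counts in EV shCTR, against 498 and 404 in EV shPCBP2 (log2 change -1.10, SE 0.55, adjusted p = 0.376 by edgeR). miR-155-5p, a miRNA of inflammation, had levels of 9.36, 13.6, 8.47 and 8.58 (-0.43, SE 1.02).

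Of the list, 5 had 0 counts in all 4 EV libraries, namely miR-155-3p, miR-31-3p, miR-3084-5p, miR-122b-3p and miR-26b-3p. With 3 counts allowed by a count of 0, their levels could be up to 0.0799 to 0.115 per library, counting error only. miR-155-3p, the bait of the study's pull-down, was also rare in the cells, where the controls had 11 and 0 counts and the silenced cells 7 and 26. Its change in EVs was not detectable at this depth.

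The motifs were searched in the mature strand only, as exact strings. The study instead scanned a degenerate hEXO motif and both a core and an extended CELL motif, so its motif classes are not reproduced here. miR-192-5p and miR-181d-5p, which the study lists with both motifs, held AUUG but not GGCU. AUUG, a core of the CELL motif, was found in 25 of the 171 tested miRNAs with a sequence (14.6%), against 6.79% of the 1679 mature mouse miRNAs matched. The other CELL core, AUUA, was found in 1, miR-451a. GGCU, taken here as the core of hEXO, was found in 26 (15.2%, against 13.3% of all matched). The strings AUUG and GGCU were held together by 3 miRNAs, miR-103-3p, miR-107-3p and miR-3102-3p. The miRNAs with AUUG had a median log2 change of -0.37 and those with GGCU of -0.74, on either side of the -0.54 of all 171. Scaled by the total mouse count, these medians were 0.11 and -0.26. AUUG was held by 21 of 134 miRNAs fitted lower (15.7%) and 4 of 37 fitted higher (10.8%), and GGCU by 20 (14.9%) and 6 (16.2%). miR-31-5p held none of these 3 exact strings, whereas the abundant miR-16-5p, miR-23a-3p and let-7f-5p held AUUG. The degenerate hEXO motif of the study was not scanned, so miR-31-5p may still carry it.

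The EVs held 28 miRNAs with 0 counts in all 4 cell libraries. They took between 1.19 and 1.65% of the mouse counts of a library. Of these, 7 were read in all 4 EV libraries, 5 in 3, 3 in 2 and 13 in 1. Among the 15 tested, 0 passed, 12 were fitted lower and 3 higher, and 8 lay lower and 0 higher without overlap by the spike-in, beside 42.6 and 5.08% of all tested miRNAs, with a median of -0.89. By the total mouse count 9 were fitted lower, 5 lay lower and 1 higher without overlap, and the median was -0.38. miR-451a, a red cell miRNA made without Dicer, had 4430 and 3667 counts in EV shCTR, against 3595 and 4119 in EV shPCBP2 (log2 change -0.38, SE 0.24). miR-142a-3p, of blood cells, had 2157 and 1274 counts against 1263 and 1117 (-0.85, SE 0.35). miR-487b-3p had 631 and 798 counts against 310 and 227 (-1.76, SE 0.63, adjusted p = 0.267 by edgeR).

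RefSeq places 18 of the 28 within chr12:109580243-109743452 on the plus strand, the imprinted Dlk1-Dio3 region, whose miRNAs are transcribed from the maternal allele. The libraries differed in how many of the 18 they held, with 12 and 11 read in EV shCTR 1 and 2, against 4 and 9 in EV shPCBP2 1 and 2. Their summed level was 123 and 61.4 in EV shCTR against 32.9 and 58.3 in EV shPCBP2, so EV shPCBP2 2 nearly met EV shCTR 2. Among them, miR-433-3p had 1189 and 244 counts in EV shCTR, against 755 and 767 in EV shPCBP2, whose levels overlapped (log2 change -0.20, SE 0.81). miR-493-5p had 369 and 425 counts against 70 and 239 (-1.61, SE 1.22), and miR-409-5p had 319 and 154 against 144 and 51 (-1.66, SE 1.56).

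Markers of cell types were read beside these changes. miR-122-5p, the defining miRNA of hepatocytes, had only 356 to 485 counts in the cell libraries, and in EVs it was counted 2327 and 795 times in the controls, against 1556 and 1872 times after silencing, with overlapping levels (log2 change -0.15, SE 0.53). Of the 5 hepatocyte markers, 5 were tested, 1 was fitted higher and 4 lower, and their summed level was 327 and 214 in EV shCTR against 217 and 208 in EV shPCBP2. The 4 tested of 5 erythroid markers were all fitted lower without overlap by the spike-in, beside 42.6% of all tested miRNAs, from a summed level of 2385 and 2184 to 1907 and 1879. On the scale of the total mouse count, miR-486a-5p and miR-486b-5p lay higher without overlap and miR-451a and miR-144-3p overlapped. The erythroid markers were nearly missing from the cells, where their sum was at most 22.6 and miR-451a, miR-144-3p and miR-144-5p were at 0. Of the 4 leukocyte markers, 3 were fitted lower and 1 higher, from 422 and 292 to 234 and 275, and miR-142a-3p and miR-142a-5p were at 0 in the cells. By the total mouse count the medians of the hepatocyte, erythroid and leukocyte lists were 0.22, 0.15 and 0.072, above 0 in each. The EVs came from medium of cultured 3A cells with EV-depleted serum, so the lists name only where these miRNAs are known from. The origin of these miRNAs in the EVs was not tested.

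The 2 endothelial markers were the arms of miR-126a, with a summed level of 121 and 187 in EV shCTR and of 101 and 132 in EV shPCBP2. Of the 5 mesenchymal markers, 4 were tested, with 3 fitted lower and 1 higher and sums of 173 and 83.9 in EV shCTR against 87.7 and 117 in EV shPCBP2. Their median was -0.49 by the spike-in and 0.0027 by the total. The muscle markers summed to between 3.46 and 5.85 in each EV library, with miR-133a-3p at 0. No marker of any list passed the test.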

How the data were processed

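The authors added cel-miR-39 to the extracted RNA, trimmed the reads, aligned forward reads to miRBase hairpins and the spike-in with mirPRo and NovoAlign, and deposited raw counts per mature miRNA, in a table of 1978 mouse and 2 spike-in rows. Counts from 1000000 up are printed to 6 digits. The sources used here name no molecular identifiers, so intervals and floors cover counting error only.

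Groups and replicate numbers follow the sample titles; the descriptions number the shPCBP2 replicates differently. Replicates are stated to be biological. Replicate pairs differed by far more than sampling noise (chi-square per degree of freedom 106 for EV shCTR and 125 for EV shPCBP2), so none was taken as a library deposited in duplicate.

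The 4 EV libraries were fitted in edgeR 4.0.16 (R 4.3.3) with a quasi-likelihood model, library sizes proportional to the cel-miR-39-3p count and a prior count of 0.125. A miRNA was tested where 2 or more EV libraries held a read of it, with Benjamini-Hochberg adjustment and a threshold of 0.05. Standard errors are approximate, since they were derived from the F statistic. The contrast in cells and the difference between compartments came from a fit over all 8 libraries. The edgeR script was first run on simulated counts with known changes. Their spread between replicates was smaller than that fitted here (common dispersion 1.50), so that run does not give the test's error rate on these data. With 2 libraries a condition, p-values measure the spread of these few cultures.

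The alternatives were scaling by the total mouse count, by TMM factors or by median-of-ratios size factors; a read in any EV library, 10 reads in every EV library, or the filter of the study's methods; all 8 libraries; DESeq2 1.42.0; limma voom (limma 3.58.1); robust estimation; a replicate block; and each EV library left out. Tables were made in Python 3.11.15 (pandas 2.3.3, with numpy 2.4.6 for arrays, and scipy 1.17.1 for the permutation test).

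The members and lists were chosen with earlier results of these data known. The text names the called miRNA, the 8 miRNAs with the smallest p in each direction, the 10 with the highest mean EV level, those read in both EV libraries of 1 condition only, the cell type markers, the miRNAs followed by RT-qPCR, and those without cell reads in at least 2 EV libraries. Seed family members and miR-126a-5p were named as members of their lists. Positions and host genes come from RefSeq and GENCODE on GRCm38.p6.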

Additional observations from a re-analysis of the deposited data

Results flagged for a closer look

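The change between shPCBP2 and shCTR was compared between EVs and cells in a single edgeR quasi-likelihood fit over all 8 libraries, and differed for 4 of the 180 miRNAs tested in both (2.22%, adjusted p under the threshold with Benjamini-Hochberg adjustment). All 4 had 0 counts in both EV libraries of a condition, so the fitted differences depend on the prior count and are no measure of size. They met the EV read filter only through the other condition, and the fit shared a spread between EVs and cells. miR-345-3p, read in EVs only after silencing, had an EV change minus cell change of 9.88 on the log2 scale (adjusted p = 0.0301, edgeR). The cells held 1515 and 1281 counts of it without silencing, against 689 and 1031 with it.

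The other three were read in EVs only in shCTR. miR-872-5p had a difference of -9.18 (adjusted p = 0.0110, edgeR), miR-296-5p of -9.58 (adjusted p = 0.0415, edgeR) and miR-129-2-3p of -7.82 (adjusted p = 0.0301, edgeR). The cells held 563 and 372 counts of miR-296-5p without silencing, against 304 and 393 with it. miR-31-5p, the only miRNA called within EVs, was not among the 4.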

How the results depend on the processing

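The number of called miRNAs, 1 in the report, depended on the setting, and the cause was not tested. It was 0 with the total mouse count, TMM factors or median-of-ratios size factors, 20 with a read in any EV library, 11 with at least 10 reads in every EV library, 13 with all 8 libraries, 48 with DESeq2, 11 with limma voom, and 0 with any EV library left out. The filter of the study's methods and robust estimation gave 1 each. No label ties the replicate numbers to a shared culture or day, and the deviations of same-numbered libraries correlated at -0.064 over the 197 tested miRNAs and at 0.14 over the 136 read in all 4. The numbers were not taken as pairs, and the replicate block gave 2 calls, miR-31-5p and miR-322-5p. miR-31-5p kept its call in 8 of 15 alternatives.

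The median log2 change of -0.54 became -0.053 with the total mouse count, -0.084 with TMM factors and -0.043 with median-of-ratios size factors. It ranged from -0.61 to -0.31 with a library left out. The RT-qPCR list's median of -0.44 became 0.022, -0.030 and 0.016 with these scalings, and ranged from -0.93 (without EV shPCBP2 1) to -0.24 with a library left out. The 9 miRNAs read in 1 condition became 5 with 100 reads needed.

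Directions that turned from lower to higher with the total mouse count, TMM factors and median-of-ratios size factors, in that order, were those of miR-16-5p (0.11, 0.076 and 0.12), miR-486a-5p (0.22, 0.18 and 0.22), miR-486b-5p (0.20, 0.16 and 0.20), let-7g-5p (0.21, 0.16 and 0.21), miR-103-3p (0.13, 0.091 and 0.13), miR-23a-3p (0.10, 0.062 and 0.10), let-7f-5p (0.12, 0.075 and 0.12) and miR-421-3p (0.31, 0.24 and 0.29). With the total and the median-of-ratios factors alone, let-7a-5p (0.0089 and 0.012), miR-214-3p (0.028 and 0.016) and miR-155-5p (0.022 and 0.017) turned as well. With a library left out, miR-301a-3p turned to -0.72 and miR-130b-3p to -0.15 (without EV shPCBP2 1), and miR-421-3p to 0.11 (without EV shCTR 2) and 0.57 (without EV shPCBP2 2).

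With 2 libraries a condition, a spike-in share of 97.6 to 98.4% and frequent counts of 0 at levels read in the other replicate, changes of weakly read miRNAs could not be resolved.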
